A study of Mus musculus with 26 samples.

Results

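The genes described here are the immunoglobulin variable (V) genes, the germline segments that encode most of the variable domain of an antibody chain. They were taken as the genes of GENCODE mouse type IG_V_gene whose symbols begin with Ighv, Igkv or Iglv. That annotation holds 216 of them, of which 113 are heavy chain genes, 100 kappa genes and 3 lambda genes. The tumour profiles listed 37 of the 216 among 16322 genes (9 heavy, 26 kappa and 2 lambda), and the profiles of sorted cells listed 147 among 14131 genes (80 heavy, 64 kappa and 3 lambda). In all, 36 V genes stood in both sets and 148 in either, and V genes outside the listed ones were not analysed here.

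RNA-seq was run on KPC mice, a strain in which a Pdx1-driven Cre acts in the pancreas, where mutant Trp53 is among the alleles it switches on, and in which pancreatic ductal adenocarcinoma develops. The mice had received either GS9820, which blocks p110δ, a PI3 kinase catalytic subunit, for 14 days, or vehicle, for which the labels give no day, and the dose is not given in the sources used here. Whole tumours came from 5 GS9820 mice and 7 vehicle mice. From spleen, cells were sorted as monocytes (4 libraries from GS9820 mice, 3 from vehicle mice) and as polymorphonuclear cells, PMN (4 from GS9820 mice, 3 from vehicle mice). The labels do not say whether monocyte and PMN libraries with the same number came from the same mouse, so p-values measure only the spread between these libraries.

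Each developing B cell joins a V segment to D and J segments at the heavy chain locus and a V segment to a J segment at a kappa or lambda locus. The joined exon is then transcribed together with a constant region, such as Ighm, Ighg1, Igha or Igkc. A single B cell and its descendants therefore carry, as a rule, 1 productive heavy and 1 productive light chain gene. As a population, naive B cells use many V genes, whereas an expanded clone adds transcripts of its own few, and plasma cells hold far more of these transcripts per cell than resting B cells. In mice most antibodies carry a kappa light chain.

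V genes of 1 family can be close in sequence, and the pairs that led the data here are shown so that their likeness can be seen. In GRCm38 the heavy chain V genes lie on chromosome 12 (chr12:113578504-116000461), the kappa V genes on chromosome 6 (chr6:67555497-70704177) and the lambda V genes on chromosome 16 (chr16:19085017-19260859). The last 100 coding bases in exon 2 are printed 5′ to 3′ on the coding strand, from GENCODE M21 transcripts, with capitals at the bases that differ within a pair.
Igkv1-110: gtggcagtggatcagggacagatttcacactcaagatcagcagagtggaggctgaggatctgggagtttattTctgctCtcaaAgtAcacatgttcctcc
Igkv1-117: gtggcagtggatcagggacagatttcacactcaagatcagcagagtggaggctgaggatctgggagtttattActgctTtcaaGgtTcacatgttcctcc
Igkv10-96: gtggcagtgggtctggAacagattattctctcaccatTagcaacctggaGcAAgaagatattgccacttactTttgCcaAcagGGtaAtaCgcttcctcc
Igkv10-94: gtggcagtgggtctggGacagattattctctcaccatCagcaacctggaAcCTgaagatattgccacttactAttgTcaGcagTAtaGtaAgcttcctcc
Igkv3-5: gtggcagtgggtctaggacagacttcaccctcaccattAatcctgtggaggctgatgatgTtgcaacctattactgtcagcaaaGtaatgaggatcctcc
Igkv3-10: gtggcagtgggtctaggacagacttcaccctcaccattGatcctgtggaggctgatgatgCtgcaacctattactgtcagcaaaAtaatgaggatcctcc
Ighv1-53: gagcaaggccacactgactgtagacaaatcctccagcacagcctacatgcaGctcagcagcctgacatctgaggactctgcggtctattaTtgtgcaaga
Ighv1-64: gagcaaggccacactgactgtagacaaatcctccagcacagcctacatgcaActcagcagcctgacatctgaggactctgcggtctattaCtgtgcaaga
Igkv1-110 (chr6:68271168-68271267, plus strand) and Igkv1-117 (chr6:68121728-68121827, plus strand) differed at 4 of these 100 bases and were 97.2% identical over the coding sequence, with a longest shared run of 142 bases. Igkv10-96 (chr6:68631963-68632062, minus strand) and Igkv10-94 (chr6:68704508-68704607, minus strand) differed at 12 bases and were 95.4% identical, with a longest run of 131 bases. Igkv3-5 (chr6:70663796-70663895, plus strand) and Igkv3-10 (chr6:70573131-70573230, plus strand) differed at 3 bases and were 98.3% identical, with a longest run of 159 bases. Ighv1-53 (chr12:115158403-115158502, minus strand) and Ighv1-64 (chr12:115507545-115507644, minus strand) differed at 2 bases and were 95.4% identical, with a longest run of 76 bases. Reads were 100 bases long, and 19 of the 37 V genes in the tumour set and 60 of the 147 in the sorted set shared at least 1 run of that length with another V gene, though 0 of them lacked a run of their own. How such reads were assigned is not given in the sources used here, so the values of the 3 kappa pairs are uncertain as a split within the pair. Ighv1-53 and Ighv1-64 shared no run of that length with each other, though Ighv1-53 shared one with Ighv1-69.

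The deposited values are log2 values on a per-length scale, and the sums of all genes after reversal of the log2 were nearly equal among libraries (1552394 to 1552450 in tumours, 1429080 to 1430327 in sorted cells). Levels are therefore relative to the other genes of a library, tumour and sorted levels were scaled apart and are not compared with each other, and read depth is unknown. Pairs of libraries correlated across genes at r of 0.63 to 0.945 in tumours and 0.784 to 0.984 in sorted cells. Pik3cd, which encodes the drug's target p110δ, averaged 5.52 ± 0.66 in GS9820 tumours and 4.82 ± 0.62 in vehicle tumours (log2, SD, n = 5 and n = 7; adjusted p = 0.23 in limma). In bulk RNA, fewer B lineage cells and less immunoglobulin RNA per cell cannot be told apart.

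V gene RNA in the tumours ranged from a full set of high genes to almost none. Taking a log2 value of at least 0 as detected, GS9820 tumours 1 to 5 had 37, 12, 27, 37 and 7 of the 37 V genes, and vehicle tumours 1 to 7 had 5, 19, 2, 35, 16, 6 and 32. The mean was 24.0 ± 14.0 genes in GS9820 tumours and 16.4 ± 13.2 in vehicle tumours (SD, n = 5 and n = 7). The 2 groups overlapped over almost their whole range, and each held tumours at both ends.

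The summed level of the 37 genes also ranged widely within both groups. It was 2237, 100.4, 168, 4089 and 20.4 in GS9820 tumours 1 to 5, and 25.0, 44.2, 15.0, 648, 53.8, 29.0 and 232 in vehicle tumours 1 to 7. The highest sum exceeded the lowest 273-fold, and GS9820 tumours 4 and 1 stood above all others. GS9820 tumour 4 held the highest value of 26 of the 37 genes (70.3%) and GS9820 tumour 1 that of the other 11 (29.7%). These counts were not made over all genes of the tumour set, so they are not read as particular to V genes. Even in GS9820 tumour 4 the V genes made up 0.263% of the sum over all genes. No V gene was detected in all 12 tumours, the median was 6 tumours, and the range was 3 to 11.

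**Figure D1:**
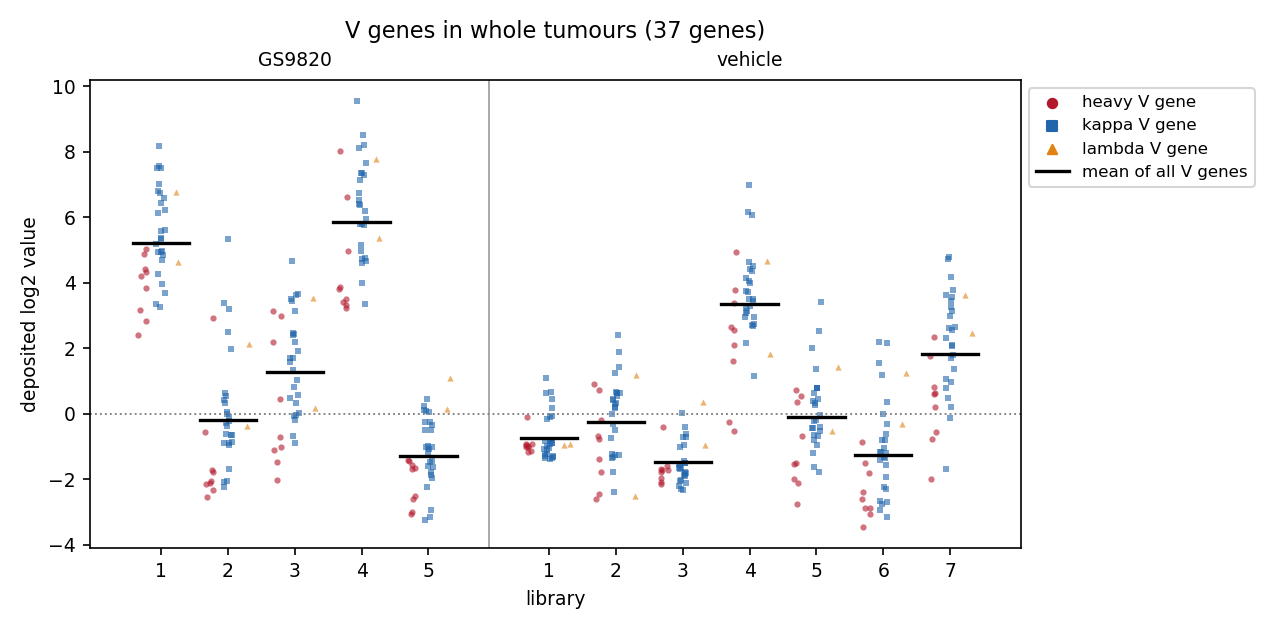
Deposited log2 values of the 37 V genes in each whole-tumour library, 5 of GS9820 mice and 7 of vehicle mice; points are genes by chain (heavy, kappa, lambda), black lines the mean over genes, the dotted line a value of 0. The means run from -1.27 to 5.86 in GS9820 tumours and from -1.48 to 3.36 in vehicle tumours, and the heavy genes lie mostly below the kappa genes.

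Kappa genes led most tumours. Igkv1-110 had the highest mean of all (3.57 ± 3.18, SD over 12 tumours) and held the largest share of the V gene sum in 5 tumours. Its values were 7.50, 3.40, 4.66, 9.54 and 0.44 in GS9820 tumours 1 to 5, and in vehicle tumours they ran from -1.64 over a median of 2.42 to 6.97. Its near-copy Igkv1-117 was close to it at 7.55, 2.49, 3.66, 8.51 and 0.07 in GS9820 tumours, and at -0.62 to 6.17 with a median of 1.43 in vehicle tumours, and led 2 tumours. Both genes were thus highest in GS9820 tumour 4, and the lowest value of each was that of vehicle tumour 3.

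The next kappa genes by mean were Igkv10-96, Igkv14-111, Igkv6-15 and Igkv10-94 (2.65, 2.17, 1.91 and 1.67). Igkv10-96 had 7.01, 5.32, 3.63, 8.21 and 0.25 in GS9820 tumours 1 to 5, against -1.86 to 4.05 with a median of 1.90 in vehicle tumours. In GS9820 tumour 2 this 1 gene held 39.8% of the V gene sum, while the top gene of the 7 vehicle tumours held 8.61% to 19.9%. As a measure of evenness, the number of equally high genes that would give the same Shannon entropy was 10.7 in GS9820 tumour 2, 20.9 to 28.3 in the other GS9820 tumours and 19.4 to 32.3 in vehicle tumours. GS9820 tumour 2 thus had the most uneven V gene RNA of the 12. Igkv14-111 led GS9820 tumour 1 at 8.18 and vehicle tumour 5 at 3.42.

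Heavy chain V genes were few in the tumour set and low. Ighv3-6, Ighv2-2, Ighv7-3, Ighv1-53, Ighv1-9 and Ighv11-2 had the highest means of the 9, from 1.02 for Ighv3-6 down to -0.17 for Ighv11-2. Ighv2-2 had 5.03, -2.31, 0.45, 8.02 and -1.65 in GS9820 tumours 1 to 5, and -1.76 to 3.78 with a median of -0.76 in vehicle tumours. In GS9820 tumour 4 it held 56.6% of the heavy V gene sum. Ighv1-9 was at 2.93 in GS9820 tumour 2 and held 76.6% of the heavy sum there, and vehicle tumours had -3.44 to 1.62 with a median of -1.37.

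Ighv11-2 belongs with Igkv14-126 to a known V gene pair of mouse B-1a cells, which bind phosphatidylcholine. It had 4.34, -2.12, 3.13, 3.33 and -3.0 in GS9820 tumours 1 to 5, against -2.87 to 0.73 with a median of -0.99 in vehicle tumours. Igkv14-126 had 5.57, -0.21, 3.50, 4.66 and -3.24 in the same GS9820 tumours, and -2.65 to 2.16 with a median of 0.62 in vehicle tumours. Both were high in GS9820 tumours 1, 3 and 4 and low in GS9820 tumours 2 and 5. That order was not particular to this pair, since Ighv7-3 had 4.42, -2.14, 2.97, 4.98 and -1.42 in the same tumours. Not every V gene followed it, as Ighv1-9 had 2.93 in GS9820 tumour 2 and -2.03 in GS9820 tumour 3. Ighv11-2 was the 1 member listed for tumours and not for sorted cells.

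Both lambda genes listed for tumours spanned a similar range of values. Iglv1 had 6.76, 2.12, 3.53, 7.77 and 0.14 in GS9820 tumours 1 to 5, and -0.93 to 4.66 with a median of 1.26 in vehicle tumours. Iglv3 had 4.62, -0.37, 0.18, 5.37 and 1.10 in GS9820 tumours, and -2.49 to 2.46 with a median of -0.52 in vehicle tumours. Each gene thus peaked in GS9820 tumour 4, and vehicle tumours overlapped the lower GS9820 tumours.

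No V gene passed the test between GS9820 and vehicle tumours. Of the 37 genes, 32 (5 heavy, 25 kappa and 2 lambda) had a value of at least 0 in 5 or more tumours and were tested by limma with all other such genes, with Benjamini-Hochberg adjustment. None of the 32 passed an adjusted p of 0.05, against 2.2% of all genes tested in either direction. At an unadjusted p under 0.05 there were 2 of 32 (6.25%), against 24.4% of all genes. The differences ran from 0.26 to 3.83 on the log2 scale with a median of 2.09, beside a median of -0.06 over all genes, and standard errors had a median of 1.41. Among the tested genes 32 had a difference above 0, and 0 of them had groups that did not overlap. The same counts over all genes were not made. The 32 signs are not independent of each other, since each of these genes was highest in GS9820 tumour 1 or 4. Without the filter, the median over all 37 genes was 2.07.

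The genes with the smallest p-values were Igkv10-94, Igkv10-96, Iglv3 and Ighv7-3. Igkv10-94 had 6.44, 3.20, 2.45, 6.75 and -0.35 in GS9820 tumours 1 to 5, and -1.81 to 3.30 with a median of -0.04 in vehicle tumours. Its difference was 3.47 ± 1.23 (SE; adjusted p = 0.118 in limma), and that of its near-copy Igkv10-96 was 3.83 ± 1.37 (adjusted p = 0.121 in limma). Iglv3 differed by 2.32 ± 1.14 (adjusted p = 0.229 in limma) and Ighv7-3 by 2.74 ± 1.35 (adjusted p = 0.23 in limma). The median difference of the tested V genes was 1.09 without GS9820 tumour 4 and 1.24 without GS9820 tumour 1, so these 2 libraries carried much of it, and it was 2.87 without GS9820 tumour 5.

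No constant region, B cell or plasma cell gene passed the test between tumours either. Igkc, the kappa constant region, had 11.74, 7.88, 8.21, 12.05 and 4.93 in GS9820 tumours 1 to 5, and 2.11 to 9.30 with a median of 5.86 in vehicle tumours (difference 3.21 ± 1.44 SE, adjusted p = 0.194 in limma). Ighm, the constant region of IgM, differed by 4.06 ± 1.30 (adjusted p = 0.0947 in limma). Of the heavy chain constant list 0 of 6 genes passed (median difference 2.20), of the light chain constant list 0 of 2 (2.42), of the B cell list 0 of 16 (1.06) and of the plasma cell list 0 of 11 (0.84). All 16 B cell genes had a difference above 0, among them Ebf1, a transcription factor of B cell identity, at 0.83 ± 0.21 (adjusted p = 0.0551 in limma), and Cd37, a tetraspanin of leukocytes, at 1.25 ± 0.49 (adjusted p = 0.144 in limma).

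V gene level and B cell markers did not always go together. Averaged over the B cell list, the log2 value was 4.21, 0.48, 1.62, 5.71 and 2.63 in GS9820 tumours 1 to 5, and 1.53, 0.09, 0.66, 3.16, 0.63, 1.99 and 4.59 in vehicle tumours 1 to 7. GS9820 tumour 4 was highest in this list as in V genes. GS9820 tumour 5 had B cell genes at 2.63 and V genes at -1.27, whereas GS9820 tumour 2 had 0.48 and -0.18. Jchain, the joining chain of secreted IgM and IgA, had 5.16 in GS9820 tumour 2 and 2.68 in GS9820 tumour 5. In these 2 tumours, Jchain followed the V genes and not the B cell list.

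Other cell type lists differed in which tumours were high. The T cell list was highest in GS9820 tumour 4 too, at a mean of 4.39, and had 0 of 11 genes that passed with a median difference of 1.37. The acinar list, markers of exocrine pancreas, had a median difference of 2.19 with 1 of 14 genes that rose, Nr5a2, and its summed level ran from 5451 to 61383 in GS9820 tumours and from 346 to 87111 in vehicle tumours. The neutrophil list had its lowest mean, 1.99, and the monocyte list its lowest, 5.71, in GS9820 tumour 1, a tumour of high V gene level, and the erythroid list its highest, 9.75, in GS9820 tumour 3. The median differences of lists with 0 genes that passed were -1.18 for neutrophil, 0.15 for monocyte, 0.74 for dendritic cell, 1.15 for erythroid, 0.39 for ductal and carcinoma epithelium, 0.25 for germinal centre and 0.07 for transcription factors of immunoglobulin genes. Cd93 was the 1 measured gene of the early B cell list (-0.34). The part of these lists in the V gene differences was not tested.

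Among sorted spleen cells, every library held a broad V gene set. The libraries were sorted as myeloid cells, whose own genome does not recombine V genes. Ly6g, Cxcr2 and Csf3r were lower and Ly6c2, Ccr2 and Fn1 higher in monocytes than in PMN (below an adjusted p of 0.05 in limma in GS9820 and in vehicle mice). Not every marker went that way. Of 10 monocyte genes, 7 were higher and 2 lower in monocytes of GS9820 mice, and 6 higher and 2 lower in those of vehicle mice. Of 11 neutrophil genes, 8 were lower in monocytes of GS9820 mice and 6 in those of vehicle mice. Monocyte libraries 1 to 4 of GS9820 mice had 134, 135, 131 and 110 of the 147 genes at a log2 value of at least 0, and libraries 1 to 3 of vehicle mice had 127, 117 and 128. PMN libraries of GS9820 mice had 146, 143, 145 and 137, and those of vehicle mice 144, 137 and 144. Each PMN library thus had more V genes detected than any monocyte library. Detected in all 14 libraries were 75 genes (47 heavy, 25 kappa and 3 lambda), in all 7 monocyte libraries 78, and in all 7 PMN libraries 125.

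The summed V gene level of the sorted libraries spread 12.3-fold from lowest to highest. It was 1447, 1717, 1107 and 1349 in monocyte libraries 1 to 4 of GS9820 mice, and 3440, 662 and 1175 in monocyte libraries 1 to 3 of vehicle mice. In PMN it was 3508, 2832, 4218 and 2928 in GS9820 mice, and 8122, 2211 and 2611 in vehicle mice. The libraries numbered 1 of the vehicle mice stood highest within both cell types. V genes made up 0.0463% to 0.568% of the sum over all genes, the highest share being that of PMN vehicle 1.

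**Figure D2:**
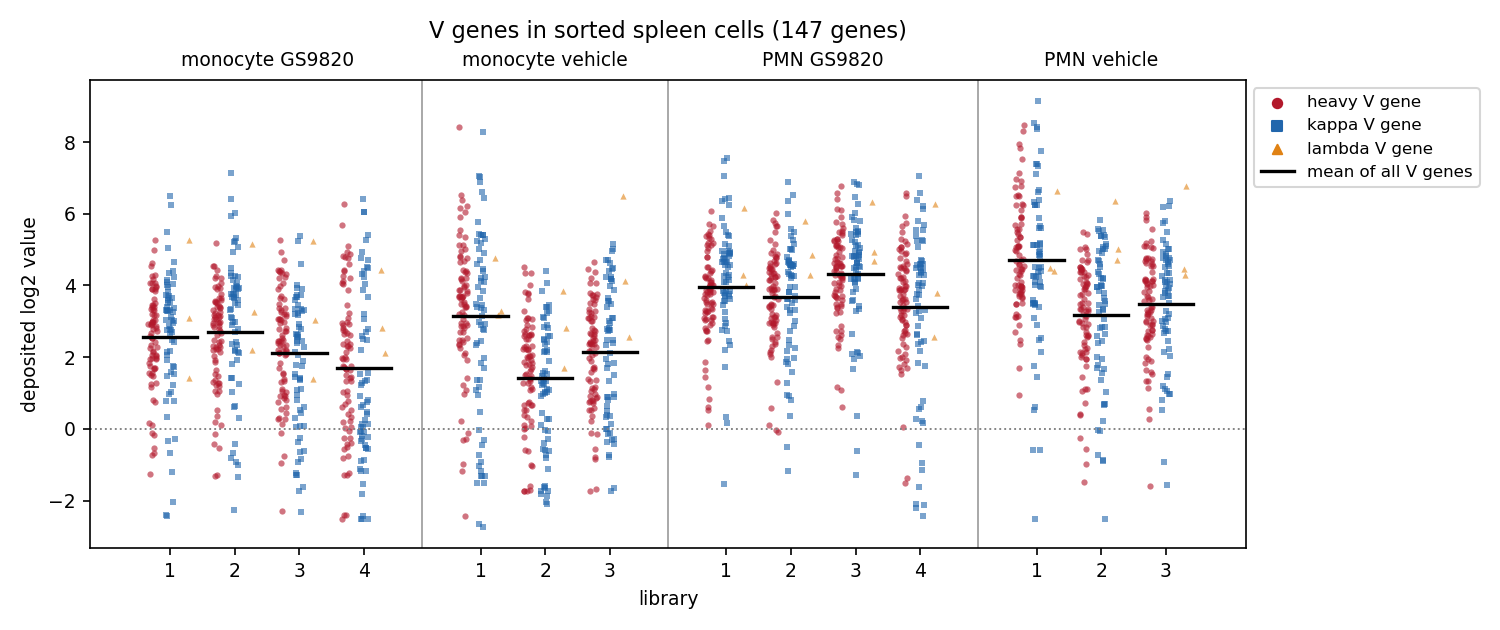
Deposited log2 values of the 147 V genes in each sorted library, monocytes and PMN of GS9820 and vehicle mice; points are genes by chain, black lines the mean over genes, the dotted line a value of 0. The means are 1.70 to 2.71 in monocytes of GS9820 mice, 1.41 to 3.14 in monocytes of vehicle mice, 3.40 to 4.33 in PMN of GS9820 mice and 3.17 to 4.71 in PMN of vehicle mice.

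Transcripts were spread over many genes in most sorted libraries. The top gene held 2.82% to 10% of the sum, and the entropy-based number of equally high genes was 63.6 to 110.2. The kappa genes of highest mean were Igkv3-5, Igkv3-4, Igkv10-96, Igkv3-2, Igkv3-10 and Igkv1-110, at 5.87, 5.61, 5.29, 5.24, 5.20 and 5.13. Igkv3-5 had 6.50, 6.41, 5.25 and 3.20 in monocytes of GS9820 mice, 7.07, 3.29 and 4.17 in monocytes of vehicle mice, 7.48, 6.88, 6.28 and 5.54 in PMN of GS9820 mice, and 8.53, 5.38 and 6.20 in PMN of vehicle mice. Igkv3-4 led 4 libraries, Iglv1 led 3 and Igkv3-5 led 2. The gene that led thus changed from library to library, with no single gene far ahead.

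The heavy chain genes of highest mean were Ighv1-53, Ighv1-64, Ighv1-74, Ighv9-3, Ighv5-6 and Ighv1-52, at 5.43, 5.07, 4.95, 4.74, 4.66 and 4.63. Ighv1-53 had 4.07, 3.98, 4.93 and 6.28 in monocytes of GS9820 mice, 5.36, 4.51 and 4.06 in monocytes of vehicle mice, 6.07, 6.01, 6.41 and 6.59 in PMN of GS9820 mice, and 6.77, 5.08 and 5.92 in PMN of vehicle mice. Ighv1-64, shown beside it above, was at 3.66 to 5.70 in monocytes of GS9820 mice, 3.08 to 5.12 in monocytes of vehicle mice, 5.66 to 6.50 in PMN of GS9820 mice and 5.0 to 6.73 in PMN of vehicle mice. Iglv1, the most used lambda V gene here, had 5.26, 5.15, 5.25 and 4.43 in monocytes of GS9820 mice, 4.77, 3.83 and 6.49 in monocytes of vehicle mice, 6.17, 5.79, 6.32 and 6.26 in PMN of GS9820 mice, and 6.63, 6.37 and 6.77 in PMN of vehicle mice. It was the highest lambda gene in all 14 sorted libraries.

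Over the genes listed for each set, summed heavy and kappa V gene levels were near each other in sorted cells and far apart in tumours. These lists differed, with 9 heavy and 26 kappa genes for tumours and 80 and 64 for sorted cells. The summed level of heavy V genes over that of kappa V genes averaged 0.136 ± 0.041 in GS9820 tumours and 0.171 ± 0.083 in vehicle tumours (SD, n = 5 and n = 7). In monocytes it averaged 1.04 ± 0.37 in GS9820 mice and 1.17 ± 0.32 in vehicle mice (n = 4 and n = 3), and in PMN 0.960 ± 0.166 in GS9820 mice and 0.999 ± 0.042 in vehicle mice (n = 4 and n = 3). The ratio lay between 0.080 and 0.298 in the 12 tumours and between 0.641 and 1.52 in the 14 sorted libraries. The groups of 1 tissue or cell type overlapped, while no tumour reached any sorted library over these unlike lists.

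The number of genes listed entered this ratio. Per gene listed, the ratio was 0.232 to 0.860 in tumours and 0.513 to 1.22 in sorted cells. Over the 36 genes that both sets share, it was 0.071 to 0.267 in tumours and 0.158 to 0.423 in sorted cells, so the ranges then overlapped and the sorted ratios were far lower than over all 147 genes. The constant regions went the other way, since the sum of heavy chain constant genes over Igkc was 0.988 to 3.67 in tumours and 0.591 to 1.15 in sorted cells. Kappa V genes exceeded lambda V genes 4.56- to 18.9-fold in tumours and 4.96- to 35.5-fold in sorted cells.

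**Figure D3:**
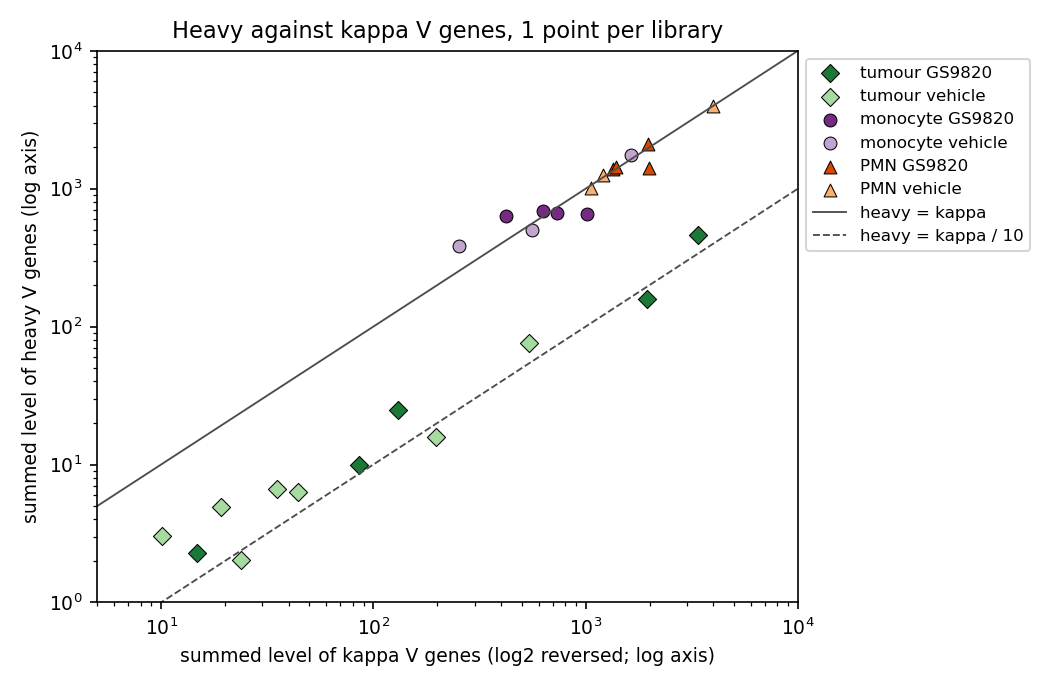
Summed level of heavy V genes against that of kappa V genes after reversal of the log2, both on log axes, with 1 point per library, a solid line where both are equal and a dashed line where kappa is 10 times heavy. Sorted libraries lie near the solid line (ratios 0.641 to 1.52) and tumours near the dashed one (0.080 to 0.298), with GS9820 and vehicle libraries mixed. Sums are over the genes listed for each set, 9 heavy and 26 kappa in tumours and 80 and 64 in sorted cells.

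By family, the sorted set covered 11 of 16 heavy, 16 of 20 kappa and 3 of 3 lambda families, and the tumour set 6, 11 and 2. Ighv1, the large J558 family of mouse heavy chains, gave 44 of its 53 annotated genes to the sorted set and 4 to the tumour set, and held 48.5% to 70.7% of the heavy sum in sorted libraries. Igkv3 held a median of 23.4% of the kappa sum in sorted libraries, and Igkv1 a median of 29.3% in tumours. Igkv4, the largest kappa family, had 15 of 26 genes in the sorted set and 0 in the tumour set.

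Genes listed for sorted cells were drawn from the whole of each locus. When the annotated V genes were split into 3 blocks along the chromosome, from low to high coordinates, the sorted set held 27 of 38, 25 of 38 and 28 of 37 heavy genes, and 21 of 34, 21 of 33 and 22 of 33 kappa genes. The tumour set held 4, 3 and 2 heavy genes and 11, 4 and 11 kappa genes of the same blocks.

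Every V gene that passed the test between monocytes and PMN was lower in monocytes. In GS9820 mice 56 of 147 V genes (33 heavy, 20 kappa and 3 lambda) were lower in monocytes by limma, that is 38.1% against 32.1% of all genes tested, and 0 were higher, against 37.6% of all genes. In vehicle mice 46 (25 heavy, 19 kappa and 2 lambda) were lower, 31.3% against 27.2% of all genes, and 0 were higher, against 32.8% of all genes. The share of V genes that fell was therefore near the background, whereas calls in the other direction were lacking. The differences had a median of -1.51 in GS9820 mice and -1.53 in vehicle mice, beside 0.07 over all genes in each, and 144 and 141 of the 147 were below 0. In GS9820 mice 54 V genes and in vehicle mice 41 had all monocyte values below all PMN values. The same count over all genes was not made, so these counts have no background to be read against.

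Calls of the 2 treatments overlapped in part. There were 28 genes called in both, 50% of the GS9820 calls and 60.9% of the vehicle calls, and they included Iglv1, Iglv3, Igkv3-10, Ighv1-64 and Ighv2-5. The count of calls rested on single libraries. It was 34 in GS9820 mice without PMN GS9820 3, and in vehicle mice 20 without PMN vehicle 1 and 21 without monocyte vehicle 2. Counts of 0 higher V genes and 65 (GS9820) and 55 (vehicle) lower ones were found at an unadjusted p under 0.05. The share of all genes at that threshold is not given here, so these counts are not read as particular to V genes.

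**Figure D4:**
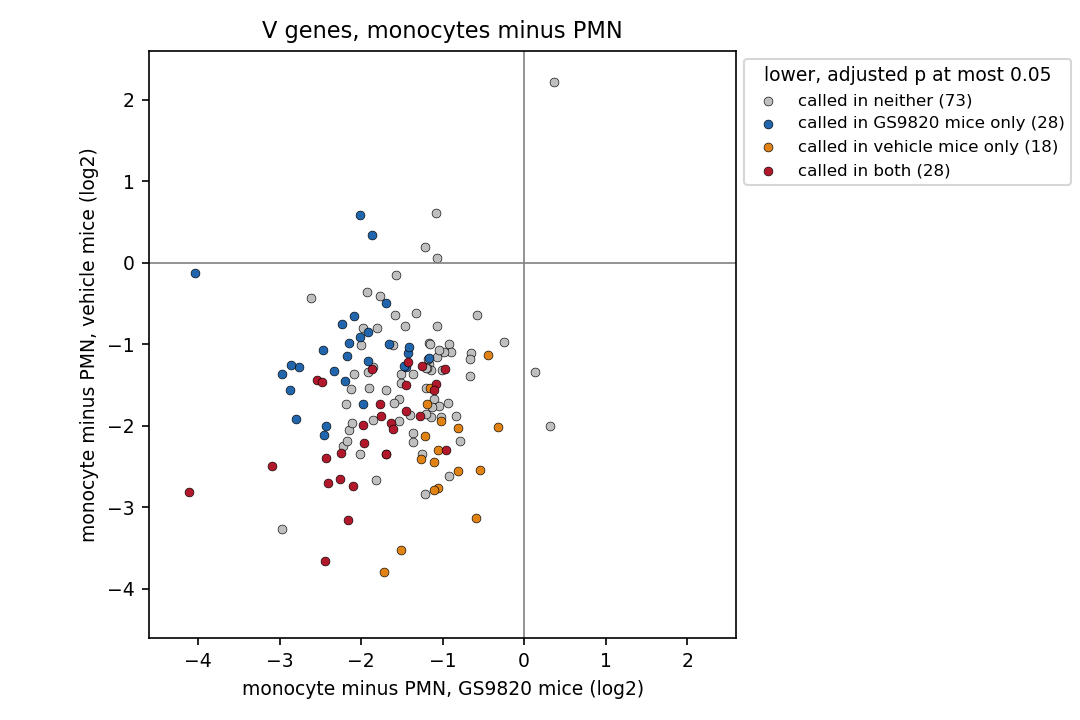
Difference in log2 value between monocytes and PMN for the 147 V genes, in GS9820 mice (x axis) and vehicle mice (y axis), coloured by where limma called the gene lower at an adjusted p of at most 0.05: 28 in both, 28 in GS9820 mice only, 18 in vehicle mice only and 73 in neither. Most points lie in the lower left part, and no gene was called higher in monocytes.

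Ighv2-5 had the smallest adjusted p of the 147 V genes in both treatments. Its values were -0.54, -1.31, -0.75 and -0.80 in monocytes and 3.34, 2.42, 3.98 and 3.30 in PMN of GS9820 mice, and -0.32, -1.73 and -0.85 in monocytes and 2.48, 1.05 and 2.00 in PMN of vehicle mice. All monocyte libraries were thus below 0 and all PMN libraries above it. The difference was -4.11 ± 0.41 in GS9820 mice (SE; adjusted p = 2.5e-06 in limma) and -2.81 ± 0.48 in vehicle mice (adjusted p = 0.00028 in limma).

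Other large differences in GS9820 mice were those of the kappa genes Igkv6-20 (-4.03 ± 0.80, adjusted p = 0.00061 in limma), Igkv13-84 (-3.09 ± 0.72), Igkv8-30 (-2.87 ± 0.67), Igkv4-68 (-2.87 ± 0.68) and Igkv3-1 (-2.80 ± 1.12), and of the heavy genes Ighv10-1 (-2.97 ± 1.09), Ighv1-47 (-2.76 ± 0.94), Ighv3-1 (-2.54 ± 0.32) and Ighv1-63 (-2.48 ± 0.41). Igkv6-20 was at -1.21, 1.41, -0.92 and -1.53 in monocytes and 3.74, 3.0, 4.51 and 2.63 in PMN of GS9820 mice. Ighv3-1 was at 1.98, 2.48, 2.34 and 1.41 in monocytes and 4.00, 4.69, 4.62 and 5.07 in PMN of those mice. Neither gene had overlapping groups. The call of Igkv3-1 was lost without any 1 of monocyte GS9820 1, 2 or 3 or PMN GS9820 1, 2 or 3, that of Ighv10-1 without monocyte GS9820 2 or 4 or PMN GS9820 1 or 3, and that of Ighv1-47 without monocyte GS9820 3 or PMN GS9820 2.

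In vehicle mice the largest differences beside that of Ighv2-5 were those of Igkv9-124 (-3.79 ± 1.49, adjusted p = 0.0425 in limma), Ighv7-3 (-3.66 ± 0.93, adjusted p = 0.0046 in limma), Igkv12-89 (-3.52 ± 1.32), Igkv3-7 (-3.15 ± 0.74), Igkv5-39 (-3.13 ± 0.95), Igkv5-48 (-2.79 ± 0.98), Igkv8-27 (-2.76 ± 0.88), Ighv1-80 (-2.73 ± 0.59) and Ighv7-2 (-2.70 ± 0.71). Ighv7-3 was at -2.43, 1.29 and 2.12 in monocytes and 3.76, 4.06 and 4.14 in PMN of vehicle mice. Igkv5-39 was at -1.31, 1.55 and 2.76 in monocytes and 2.15, 5.54 and 4.70 in PMN of those mice, where 1 monocyte value lay above the lowest PMN value. Among the 9 genes the SD in vehicle mice ran from 0.37 (Igkv9-124) to 2.64 (Igkv8-27) in monocytes and from 0.068 (Igkv5-48) to 1.85 (Igkv9-124) in PMN. Several of these calls rested on single libraries. That of Igkv9-124 was lost without any 1 of the 3 monocyte vehicle libraries, PMN vehicle 1 or 3 or PMN GS9820 1. The call of Igkv12-89 was lost without monocyte vehicle 1 or 3 or PMN vehicle 1 or 3, that of Igkv5-48 without monocyte vehicle 2 or 3 or PMN vehicle 1 or 3, and that of Igkv5-39 without monocyte vehicle 1 or PMN vehicle 2. Without monocyte vehicle 1 the difference was -1.24 for Igkv8-27, -2.28 for Ighv7-3 and -1.98 for Igkv5-39. The V gene with the largest value above 0 was Igkv9-129, at 2.22 in vehicle mice and 0.37 in GS9820 mice, and it passed in neither.

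B lineage genes fell together with the V genes. Of the B cell list 15 of 16 genes were lower in monocytes than in PMN in GS9820 mice (median difference -1.49) and 16 of 16 in vehicle mice (-1.80). Ebf1 fell by 1.59 ± 0.41 and Cd79a, part of the B cell receptor complex, by 1.58 ± 0.39 in GS9820 mice, and Cd22, an inhibitory receptor of B cells, fell by 2.56 ± 0.47 and Ms4a1, which encodes CD20, by 2.30 ± 0.42 in vehicle mice. The summed level of the B cell list was 301 to 443 in monocytes and 850 to 1049 in PMN of GS9820 mice, and 322 to 457 in monocytes and 860 to 1155 in PMN of vehicle mice. At least 15 of the 16 markers had a value of at least 0 in each monocyte library, and all 16 did in each PMN library. Their part in the V gene differences was not tested.

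Constant region and plasma cell genes moved less uniformly. Iglc2, the constant region used with Iglv2, was lower in monocytes by 1.70 ± 0.30 in GS9820 mice and 1.77 ± 0.35 in vehicle mice. Of the heavy chain constant list 2 of 7 fell in GS9820 mice, Ighe and Igha, and 0 of 7 in vehicle mice, with median differences of -1.0 and -0.99. Igkc, with the highest mean of the constant genes, differed by -0.49 ± 0.53 in GS9820 mice and -0.76 ± 0.62 in vehicle mice, and did not pass in either. In the plasma cell list 5 of 10 fell and 3 rose in GS9820 mice, and 4 fell and 1 rose in vehicle mice. Pou2af1, a coactivator of octamer factors at V gene promoters, fell by 1.63 ± 0.38 in GS9820 mice and by 2.09 ± 0.44 in vehicle mice, while Txndc5, an endoplasmic reticulum chaperone that is not specific to plasma cells, was 2.24 ± 0.32 and 1.55 ± 0.36 higher.

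Lists of other cells are read against the shares of all genes, 32.1% lower and 37.6% higher in monocytes of GS9820 mice and 27.2% and 32.8% in those of vehicle mice. Among germinal centre genes 4 of 6 fell and 2 rose in GS9820 mice, and 4 fell and 1 rose in vehicle mice. Among transcription factors of immunoglobulin genes 2 of 5 fell, Pou2af1 and Spi1, and 1 rose, Tcf3, in each. Of 12 T cell genes 5 fell in GS9820 mice and 1, Cd4, in vehicle mice. Of 11 neutrophil genes 8 fell in GS9820 mice and 6 in vehicle mice, and of 10 monocyte genes 7 rose and 2 fell in GS9820 mice, and 6 rose and 2 fell in vehicle mice. Of 10 dendritic cell genes 3 fell in each, and 2 rose in GS9820 mice. The counts of lower dendritic cell genes were near the share of all genes, and that of T cell genes in vehicle mice was below it. Of 8 erythroid genes 0 passed in either, and Cd93, also a gene of myeloid cells, was 3.02 and 2.95 higher. Pik3cd differed by -0.34 ± 0.19 in GS9820 mice (adjusted p = 0.129 in limma) and by -0.49 ± 0.22 in vehicle mice (adjusted p = 0.0702 in limma).

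No V gene passed the test between GS9820 and vehicle mice in either sorted cell type. In monocytes 0 of 147 V genes passed in limma, against 0% of all genes, and 12 had an unadjusted p under 0.05 (8.16%, against 2.4% of all genes). In PMN 0 of 147 passed, against 0% of all genes, and 6 had an unadjusted p under 0.05 (4.08%, against 3.08% of all genes). The median difference of the V genes was 0.11 in monocytes and 0.086 in PMN. Without the 2 vehicle libraries numbered 1, a choice made after the data were seen, it was 0.55 in monocytes and 0.50 in PMN. Then 23 V genes in monocytes and 14 in PMN had an unadjusted p under 0.05, and still 0 passed in limma. The shares of all genes under that setting are not given here. The sign of the V gene medians was not stable, since that of monocytes was -0.30 without monocyte vehicle 2 and -0.12 without monocyte vehicle 3. The median in PMN was -0.17 without PMN vehicle 2, -0.025 without PMN vehicle 3, -0.074 without PMN GS9820 3 and -0.090 with array quality weights.

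The smallest p-values in monocytes were those of Ighv14-4, Igkv5-39, Igkv6-23 and Ighv10-1. Ighv14-4 had 0.82, 0.99, 0.29 and -0.75 in monocytes of GS9820 mice and 2.80, 2.23 and 3.75 in monocytes of vehicle mice, a difference of -2.59 ± 0.58 (unadjusted p = 0.00064, adjusted p = 0.996 in limma). The groups of Ighv14-4 did not overlap in monocytes. Igkv5-39 differed by 3.04 ± 0.89, Igkv6-23 by -2.31 ± 0.76 and Ighv10-1 by -3.60 ± 1.18, each at an adjusted p of 0.996 in limma. Of these, Ighv10-1 had 6.54 in monocyte vehicle 1, against 2.73 and 2.37 in the other 2 vehicle libraries and -1.28 to 1.39 in GS9820 mice.

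In PMN the smallest p-values were those of Ighv2-5, Ighv1-76, Ighv14-4 and Ighv2-3. Ighv2-5 had 3.34, 2.42, 3.98 and 3.30 in GS9820 mice and 2.48, 1.05 and 2.00 in vehicle mice (difference 1.42 ± 0.44, unadjusted p = 0.0074, adjusted p = 1 in limma). Its groups overlapped by 1 library on each side. Ighv1-76 differed by -1.93 ± 0.69, Ighv14-4 by -1.56 ± 0.58 and Ighv2-3 by 1.46 ± 0.54, each at an adjusted p of 1 in limma. Pik3cd differed by 0.20 ± 0.20 in monocytes and 0.046 ± 0.204 in PMN, and 0 genes of any cell type list passed in either comparison.

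The treatment differences of the 2 cell types were also set against each other. The difference in monocytes minus that in PMN passed for 0 of 147 V genes in limma, against 0% of all genes, and 5 had an unadjusted p under 0.05 (3.4%, against 1.93% of all genes). Its median over the V genes was 0.061, and it ran from -0.37 to 0.53 when single libraries were left out. It was below 0 without any 1 of monocyte GS9820 2 or 3, monocyte vehicle 2 or 3, PMN GS9820 2 or 4 or PMN vehicle 1. Igkv6-20 (-3.90 ± 1.22), Ighv2-3 (-2.21 ± 0.76), Ighv1-18 (1.34 ± 0.54) and Ighv3-1 (-1.10 ± 0.48) had the smallest p-values, each at an adjusted p of 1 in limma.

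The vehicle libraries numbered 1 shared a distinct set of high V genes. Monocyte vehicle 1 held the highest monocyte value of 62 of the 147 V genes (42.2%), PMN vehicle 1 the highest PMN value of 64 (43.5%), and 44 genes (29.9%) were highest in both. Over all genes the shares were 10.2% in the monocyte library, 13.8% in the PMN library and 2.12% in both. Of the V genes, 12 lay at least 2 log2 units above every other monocyte library in monocyte vehicle 1 and 11 above every other PMN library in PMN vehicle 1, while each other sorted library had 0 or 1 such gene. The 8 that did so in both were Ighv1-16, Ighv1-20, Ighv1-67, Ighv1-7, Ighv10-1, Igkv1-122, Igkv12-98 and Igkv19-93, chosen here after their values were seen.

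Igkv1-122 was at 7.03 in monocyte vehicle 1 and 0.11 and 0.33 in the other monocytes of vehicle mice, with -1.11 to 2.06 in monocytes of GS9820 mice. In PMN it was at 9.14 in vehicle 1 and 2.83 and 0.53 in the other vehicle libraries, with -2.43 to 4.59 in GS9820 mice. Ighv1-16 led monocyte vehicle 1 at 8.43 (10% of its V gene sum), and had 7.85 in PMN vehicle 1. Igkv19-93 had 8.27 in monocyte vehicle 1 and 7.75 in PMN vehicle 1, and 0.81 to 5.68 in the other 12 libraries. Ighg2b and Ighg3, constant regions of switched IgG, were also highest in these libraries, at 9.27 and 9.24 in monocyte vehicle 1 and 10.35 and 9.81 in PMN vehicle 1. This was not particular to switched IgG, since Ighm (9.68 and 11.26 in these libraries), Ighg1, Igkc and Iglc2 were highest there too. Ighg2c was highest there only in PMN, and Igha and Ighe in neither cell type.

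A smaller case was Igkv14-126, at 5.93 in monocyte GS9820 2 and 7.06 in PMN GS9820 1, libraries that do not share a number. It lay at -0.86 to 3.66 in the other monocyte libraries and at 0.66 to 5.59 in the other PMN libraries. Among GS9820 libraries, monocyte GS9820 2 and PMN GS9820 1 were each other's closest across cell types in V genes. Their deviations from the group means correlated at 0.382.

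**Figure D5:**
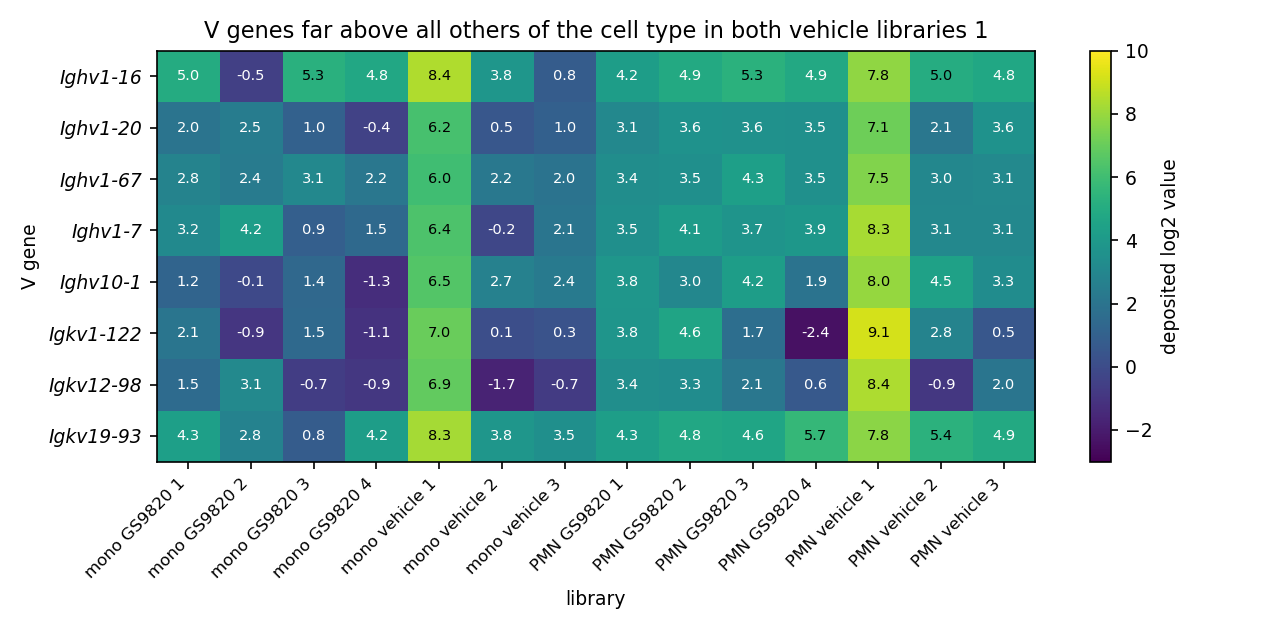
Deposited log2 values of the 8 V genes that lay at least 2 log2 units above every other library of the cell type in both monocyte vehicle 1 and PMN vehicle 1, by library. The columns of these 2 libraries run from 6.0 to 9.1, and the others do not pass 5.7.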

How the data were processed

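Alignment and counting were done by the authors with TopHat2 and STAR on mm10, with limma also named, per the submitters' processing notes. The deposited values are log2 values named as RPKM, 1 table per library, and the authors' normalization beyond that is not given in the sources used here. Tumour libraries were total RNA depleted with Ribo-Zero, and sorted libraries were made with Illumina TruSeq or NuGEN kits, per the labels' protocols, which do not say which library had which.

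Gene identifiers were matched to GENCODE M21, where 283 identifiers of the tumour tables and 245 of the sorted tables had no match. Log2 values were tested in limma 3.58.1 (R 4.3.3; lmFit, eBayes with a mean trend, two-sided) over all genes that reached a value of 0 in 5 or more tumour libraries, or in 3 or more sorted ones, with Benjamini-Hochberg adjustment, and called at an adjusted p of at most 0.05. Tumours had their own fit, and the 4 sorted groups shared another. The fit was tested on simulated data. Summed levels add the values after reversal of the log2.

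Named V genes are the 6 heavy, 6 kappa and 2 lambda genes of highest mean per set, up to 10 called genes by size per comparison or else the 4 of smallest p, and the top gene of each library. Of each marker list up to 4 called genes were named, or else 2 of high mean, and exceptions are said where they occur. The V genes and marker lists were chosen with earlier results of these data known. Normalization, filter, pseudocount, trend, weights, blocks and left-out libraries were varied. A planned promoter motif search was not run, as the promoter table used here lists no V gene. Some items are not reported here.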

Additional observations from a re-analysis of the deposited data

Results flagged for a closer look

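Single libraries stood apart from the other libraries of their group in 8 of 102 checks of groups of 4 or more libraries (the gap to the nearest library passed Dixon's 95% critical value for the range), where chance gives about 1 in 20. In monocytes of GS9820 mice, Igkv3-10 was at 3.89 in library 3 and at 5.06 to 5.28 in the others. Library 4 had Iglv1 at 4.43, against 5.15 to 5.26, Igkv6-23 at -0.28, against 3.30 to 3.64, and a log2 summed lambda V level of 5.04, against 5.61 to 5.63.

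In PMN of GS9820 mice, Igkv3-10 was at 5.43 in library 3 and at 6.24 to 6.38 in the others, and Igkv3-1 was at 1.74 in library 4 and at 3.63 to 3.89 in the others. The log2 of the summed heavy V level was 11.04 in PMN GS9820 3, against 10.43 to 10.49 in the others, and PMN GS9820 4 had 56 kappa V genes detected, against 62 to 63. Igkv3-10 was thus low in library 3 of both cell types, and 3 of the 4 values in monocytes came from library 4. Of those 3, the Iglv1 and summed lambda values overlap, since Iglv1 held 65.5% to 77.7% of the lambda sum in these monocytes. The checks were therefore not all independent of each other.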

How the results depend on the processing

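No result changed sign in a call under the alternatives run, and 0 V genes were called between GS9820 and vehicle libraries, in tumours or sorted cells, under any of them. The median difference of V genes between GS9820 and vehicle tumours was 1.09 to 2.87 when single tumours were left out and 1.12 with array quality weights. With the replicate block it was 2.02, with 9 genes at an unadjusted p under 0.05, for which the share of all genes is not given here. Monocyte against PMN calls in GS9820 mice (56) ran from 34 to 62 when single libraries were left out, in vehicle mice (46) from 20 to 67. With the replicate block they were 65 in GS9820 and 58 in vehicle mice, and with a block of number within treatment, chosen after the data were seen, 86 and 77. In GS9820 mice there were 92 with array quality weights and 86 with only the 2 groups fitted. Without both vehicle libraries 1, also chosen after seeing the data, calls were 74 in GS9820 and 43 in vehicle mice. The median of the monocyte minus PMN treatment difference was 0.85 with array quality weights, against 0.061. The cause of these shifts was not tested.

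Same-numbered libraries deviated from their group means with correlations of -0.179 to 0.263 in tumours, -0.223 to 0.450 (GS9820) and 0.085 to 0.457 (vehicle) between monocytes and PMN over all genes tested. Over the V genes alone these were -0.149 to 0.351 (GS9820) and 0.167 to 0.654 (vehicle), and monocyte vehicle 2 was closer to PMN vehicle 3 (0.343) than to PMN vehicle 2 (0.167). Over all genes tested, each vehicle monocyte library correlated best with the PMN library of its number (0.457, 0.277 and 0.085 in libraries 1, 2 and 3). So did monocyte GS9820 3 (0.273) and 4 (0.450). Monocyte GS9820 1 was closest to PMN GS9820 2 (0.411) and monocyte GS9820 2 to PMN GS9820 1 (0.211). Over the V genes alone, the GS9820 libraries had the same closest partners. Monocyte GS9820 1 was closest to PMN GS9820 2 (0.210) and 2 to 1 (0.382), while 3 (0.320) and 4 (0.351) matched by number. The numbers matched in only part of the libraries and were not taken as pairs, and neither were the closest partners. Whether closest partners came from the same mouse was not tested, so the monocyte against PMN p-values ignore any shared mouse.

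Mean heavy over kappa, taken from mean log2 values per gene, was 0.365 in GS9820 and 0.487 in vehicle tumours. At detection thresholds of 2 and 4, GS9820 tumours had 18.8 and 12.0 V genes on average and vehicle tumours 8.14 and 2.14. At the same thresholds, monocytes of GS9820 mice had 90.5 and 24.0, monocytes of vehicle mice 85.3 and 27.0, PMN of GS9820 mice 131 and 77.0, and PMN of vehicle mice 126 and 71.7. Depth is unknown, so values near 0 may rest on few reads.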

Other observations

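Igkv11-106, annotated as a V pseudogene and so not a member, was high in the same libraries as the genes described last. It was at 8.71 in monocyte vehicle 1, against 1.26 to 4.79 in the other monocyte libraries, and at 8.11 in PMN vehicle 1, against 4.57 to 5.92 in the other PMN libraries. Ighe, the constant region of IgE, was at 3.91, 0.73, 1.37 and 3.33 in PMN of GS9820 mice and at -0.23, -3.18 and -2.56 in PMN of vehicle mice. Its groups did not overlap, and the adjusted p was 1 in limma.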
